A study of Drosophila melanogaster with 12 samples.

Results

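The adult Drosophila melanogaster midgut is lined mainly by enterocytes (ECs), large polyploid cells that secrete digestive enzymes and take up nutrients. They mature from enteroblasts (EBs), post-mitotic progenitors that are themselves daughters of intestinal stem cells. Hey is a transcription factor of the HES family, basic helix-loop-helix proteins that bind DNA and are best known as targets and mediators of Notch signalling. The transcripts described here were high in control whole guts, low in purified control EBs, and lower in guts in which Hey was knocked down in ECs, with little difference between Hey RNAi EBs and control EBs. There were 123 such transcripts among the 15473 on the array, or 0.795%.

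Adult females of 4 groups were profiled on 1-colour NimbleGen arrays, with 3 arrays for each group and 12 arrays in all. Hey RNAi guts expressed dHey RNAi under MyoIA-Gal4, which is active in ECs, with the temperature-sensitive inhibitor tub-Gal80ts. Hey RNAi EBs expressed dHey RNAi under Hey-Gal4 and were purified with magnetic beads through a surface CD8-GFP. Control EBs and control guts expressed UAS-GFP under the same 2 drivers. Per the labels, all flies were raised at 18 °C, and females aged 2 to 4 days were held at 29 °C for 2 days before RNA extraction. According to the study's methods, the flies used for EBs first had a further stay at the lower temperature, so they may have been older. The study also describes Hey-Gal4 as active mostly in EBs and to a small extent in stem cells, and the purified cells as not all carrying the marker. A difference between EBs and guts therefore cannot be told apart from one of driver, purification or age. The cross that the study describes for the EBs names no tub-Gal80ts, so Hey RNAi there may have run for longer than in guts. A difference between the 2 Hey RNAi effects cannot be told apart from one of duration. The guts were not purified, so fewer cells of a type and less RNA per cell cannot be told apart in any gut value below.

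Levels are given as log2 intensity after quantile normalization over the 12 arrays, which gives every array one distribution. The members were chosen by 3 differences of group means. The gut difference (Hey RNAi guts minus control guts) and the tissue difference (control EBs minus control guts) both had to be at or below -1.5, and the EB difference (Hey RNAi EBs minus control EBs) had to be within 0.8 of 0 on either side. In addition, all 3 Hey RNAi guts had to lie below all 3 control guts. These values are therefore a description of how the members were picked, and no test of them is given.

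The steps of the rule removed transcripts unevenly. On the tissue difference alone, 1752 transcripts were gut-enriched. Of these, 227 also met the gut limit, which is measured against the same control guts. The limit on the EB difference then left out 95 transcripts (in Hey RNAi EBs, 57 of them were above and 38 below control EBs), and overlap between the gut arrays left out 9 more.

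The identifiers on the array are FlyBase transcript numbers. Through the RefSeq gene table (assembly Release 6 plus ISO1 MT), 17 identifiers of the array were paired with a single gene symbol, and 0 of the 123 members were among them. The members are therefore named by identifier, and neither their functions nor the markers of ECs, EBs and other gut cells, nor Hey itself, could be read here. The groups are accordingly called by their labels alone, and whether the members are digestive enzymes, transporters or other EC products was not examined.

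In control guts the members were bright. Their group means there had a median of 12.05, with the middle 50% of members between 10.73 and 12.86, against 9.45 for all transcripts. In Hey RNAi guts the median was 9.29 (middle 50% 7.69 to 10.42), against 9.45 for all transcripts. The purified cells were lower again, with medians of 8.50 in Hey RNAi EBs and 8.55 in control EBs. By rank, 104 members lay above the median transcript in control guts and 30 were among the brightest 1 in 10. In Hey RNAi guts, 61 lay above the median transcript, 0 were among the brightest 1 in 10 and 24 were among the dimmest 1 in 3. Most members were thus lower in Hey RNAi guts without reaching the dim end of the array, and "lost" would overstate the difference for them.

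**Figure D1:**
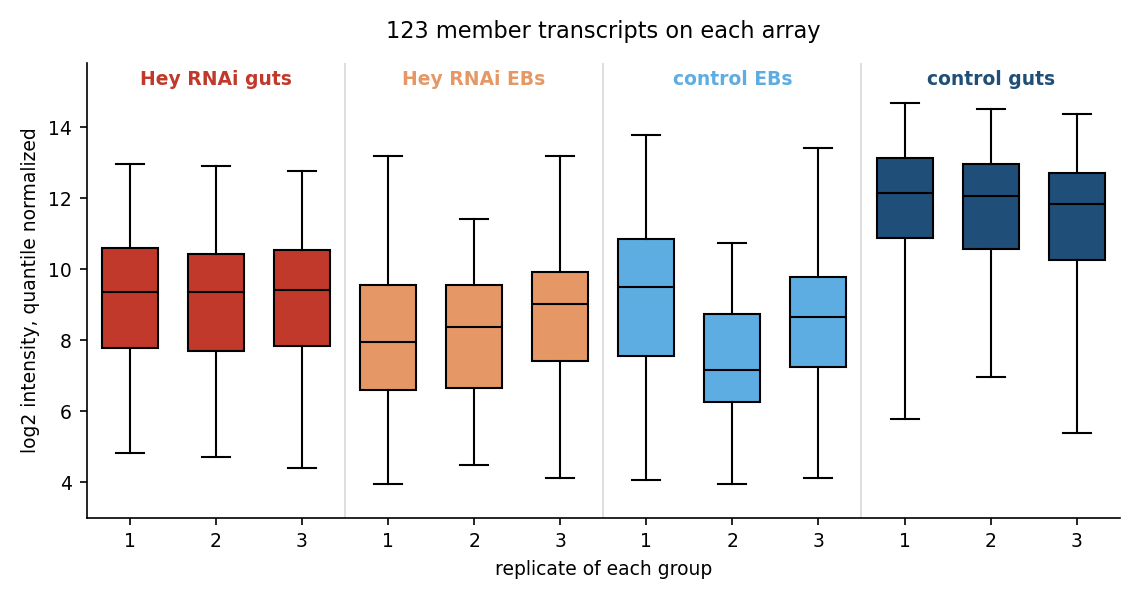
Log2 intensity of the 123 members on each of the 12 arrays. Boxes span the middle 50% of members with the median as a line, whiskers reach the lowest and highest member, and colours mark the groups. The medians are 9.35 to 9.41 on the Hey RNAi guts, 7.95 to 9.02 on the Hey RNAi EBs, 7.18 to 9.49 on the control EBs and 11.82 to 12.15 on the control guts.

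The gut difference had a median of -2.15 over the members, a 4.44-fold lower level in Hey RNAi guts, and ran from -5.85 to -1.501 (all transcripts: median 0.02). At least 4-fold lower in Hey RNAi guts were 71 members, at least 8-fold lower 25, at least 16-fold lower 11 and at least 32-fold lower 3. The tissue difference had a median of -3.02 (8.11-fold) and ran from -6.20 to -1.53, against a median of 0.21 for all transcripts. At least 8-fold below control guts in control EBs were 62 members, and at least 32-fold below 5. On single arrays, all 3 control EBs lay below all 3 control guts for 117 members (22.2% of all transcripts). The EB difference had a median of -0.05 (all transcripts: 0.04) and was above 0 for 58 members and below 0 for 65. The 3 Hey RNAi EBs and the 3 control EBs did not overlap for 3 members (34.7% of all transcripts). The rule limited the tissue and EB differences, so nothing is read from either count of non-overlapping arrays.

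In a limma fit over all transcripts (Benjamini-Hochberg adjusted p under 0.05 and at least 2-fold), 72 members were called lower in Hey RNAi guts, where 1.43% of all transcripts were. In control EBs against control guts 118 members were called lower, against 13.7% of all transcripts. Between Hey RNAi EBs and control EBs, 0 members were called in either direction, against 17.0% of all transcripts. These contrasts chose the members, so nothing is read from the counts. The 221 transcripts behind the 1.43% also moved with the fit, to 80 with no further normalization and 516 when only the gut arrays were fitted. All 123 members had the 3 Hey RNAi guts below the 3 control guts because the rule demanded it (19.9% of all transcripts did). The distance from the lowest control gut down to the highest Hey RNAi gut had a median of 1.59 and a range of 0.07 to 5.20. It exceeded 1 for 100 members. The rule required it to be above 0, and the gut limit also bears on its size, so nothing is read from it.

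FBtr0085078 had the most negative gut difference. Its levels were 7.73, 7.10 and 6.94 in Hey RNAi guts, against 13.23, 13.17 and 12.93 in control guts, a difference of -5.85 or 57.8-fold. As deposited, before any normalization here, its intensities were 234, 87.9 and 102 in Hey RNAi guts and 11497, 8115 and 8297 in control guts. In the purified cells it had levels of 8.66, 9.50 and 9.92 in Hey RNAi EBs and 11.65, 8.03 and 10.26 in control EBs. Each Hey RNAi gut was thus below every EB array for this transcript, and the control EBs differed among themselves by more than 3 log2 units.

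FBtr0077539 had the next most negative gut difference, -5.78 or 55.0-fold as measured, and a different pattern. It had levels of 4.99, 5.95 and 5.40 in Hey RNAi guts, against 11.22, 11.72 and 10.75 in control guts. It was as low in the EBs, with 3.94, 6.57 and 5.30 in Hey RNAi EBs and 5.21, 4.999 and 5.42 in control EBs. Its tissue difference was -6.02 (65.02-fold), so the mean of the Hey RNAi guts lay within 0.24 of that of the control EBs. It was bright only in the control guts, and in Hey RNAi guts only 9.45% of all transcripts were dimmer. Its deposited intensities there were 35.1, 35.4 and 34.1, against 2686, 2690 and 1855 in control guts. No background level is known for these arrays, so the level in Hey RNAi guts and EBs may be at the floor and both folds may understate the difference.

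A few further members, chosen after their values were seen, mark the ends of the range. FBtr0085077 had the highest level in control guts, with 12.24, 11.72 and 11.47 in Hey RNAi guts, against 14.68, 14.51 and 14.36 in control guts. It stayed among the brighter transcripts after a difference of -2.71, and it differs from FBtr0085078 by 1 in its identifier number. FBtr0080616 was the dimmest, with 4.82, 4.73 and 4.39 in Hey RNAi guts, against 5.77, 8.49 and 5.38 in control guts. Its place among the members rested on control gut 2. Other members also depended on single control guts. Of the 123, 107 met the rule without control gut 1, 106 without control gut 2 and 122 without control gut 3.

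Just inside the gut limit lay FBtr0088849 (gut difference -1.501), with means of 11.68 in Hey RNAi guts and 13.19 in control guts, and just outside it FBtr0087815 (at the limit after rounding), with 8.60 in Hey RNAi guts and 10.10 in control guts. FBtr0076790 (tissue difference -1.53) and FBtr0082026 (-1.48) lay on either side of the tissue limit, and FBtr0072634 (EB difference -0.79) and FBtr0077516 (0.80) on either side of the EB limit. Near the gut limit, 16 members had a gut difference above -1.6, and 8 transcripts between -1.5 and -1.4 met every other condition.

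The question whether Hey RNAi guts came down to the level of the purified progenitors, passed it or stopped short of it was read from the Hey RNAi gut mean minus the control EB mean. The rule used both means, so this too is a description. The difference had a median of 0.74 over the members, with the middle 50% between 0.04 and 1.69, against -0.19 over all transcripts. The Hey RNAi gut mean was above the control EB mean for 93 members and below it for 30. Expressed as a share, the gut difference was 74.6% of the tissue difference in the median member (middle 50% 53.8% to 97.9%). It was over 50% of it for 100 members and at least as large for 30. Because both differences are taken from the same control guts, an error in those arrays moves both the same way.

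**Figure D2:**
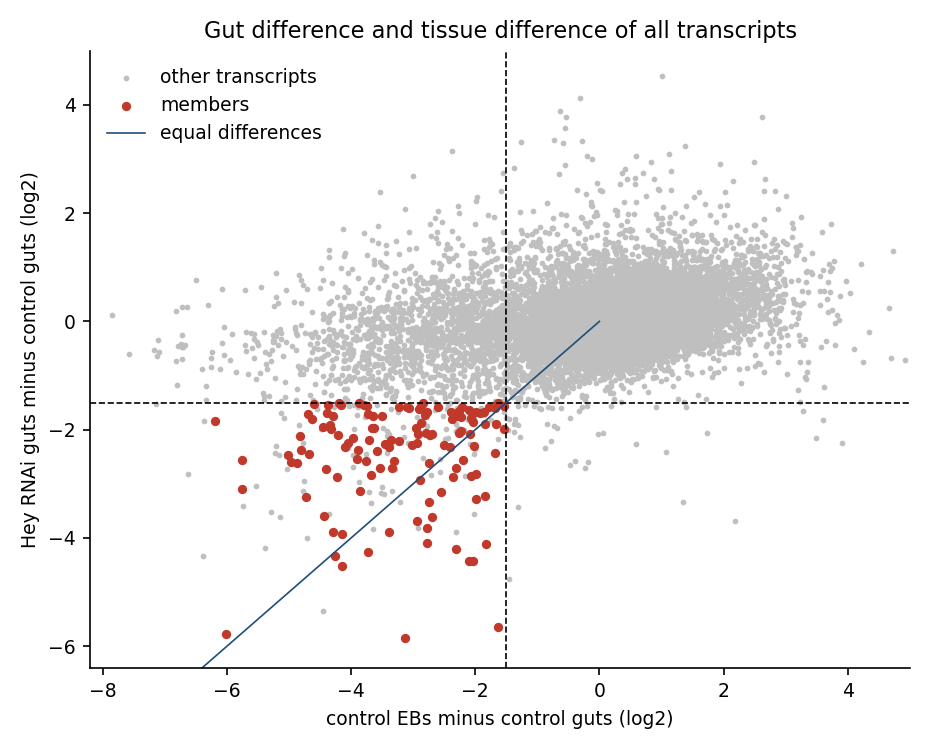
Gut difference (vertical) against tissue difference (horizontal), both in log2 units, for all 15473 transcripts in grey and the 123 members in red. Dashed lines mark the limits at -1.5, and on the blue line the Hey RNAi guts equal the control EBs. Both axes subtract the same control guts. Most members, 93, lie above the blue line.

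Array by array, the members fell into 3 sets. The rule used both group means, so the sizes of these sets beside all transcripts are a description of the choice. For 46 members all 3 Hey RNAi guts lay above all 3 control EBs, as they did for 22.1% of all transcripts. These had median levels of 9.97 in Hey RNAi guts, 7.72 in control EBs and 12.14 in control guts. For 10 members all 3 Hey RNAi guts lay below all 3 control EBs, as they did for 35.3% of all transcripts, and the medians were 7.12 in Hey RNAi guts, 9.40 in control EBs and 11.37 in control guts. For the other 67 the arrays overlapped, with medians of 9.45 in Hey RNAi guts, 8.99 in control EBs and 12.04 in control guts.

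FBtr0074827 and FBtr0081372, again chosen after their values were seen, show the extremes. FBtr0074827 had levels of 5.82, 5.52 and 5.58 in Hey RNAi guts, 10.68, 8.85 and 9.39 in control EBs and 11.87, 11.26 and 10.70 in control guts. Its Hey RNAi gut mean was 4.00 below the control EB mean, so it was well above its Hey RNAi gut level in both the purified cells and the control guts. FBtr0081372 had levels of 10.33, 10.43 and 10.50 in Hey RNAi guts, 6.21, 6.68 and 5.31 in control EBs and 12.20, 12.13 and 12.46 in control guts. It had the most negative tissue difference of the members (-6.20), yet its gut difference of -1.84 was 29.7% of it, the smallest share.

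**Figure D3:**
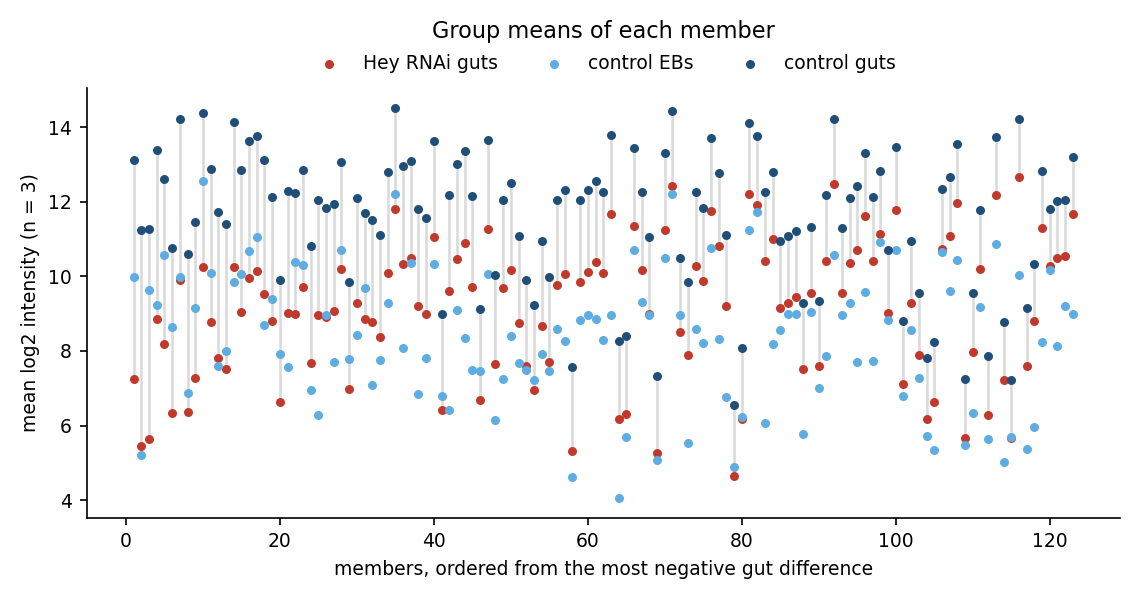
Mean log2 intensity (n = 3 arrays) of each of the 123 members in Hey RNAi guts, control EBs and control guts, ordered from the most negative gut difference at the left. Grey lines join the Hey RNAi gut mean to the control gut mean. Blue control EB points lie below the red Hey RNAi gut points for 93 members and above them for 30.

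In every group the median member varied more between arrays than the median transcript, and the gap was widest in control EBs. The SD over 3 arrays had a median of 0.24 in Hey RNAi guts (all transcripts 0.16), 0.71 in Hey RNAi EBs (0.41), 0.89 in control EBs (0.35) and 0.33 in control guts (0.19). An SD above 0.5 was seen for 18 members in Hey RNAi guts, 81 in Hey RNAi EBs, 85 in control EBs and 32 in control guts. The share of all transcripts above 0.5 was not counted, and the SD of the other gut-enriched transcripts was not read. The spread is therefore not shown to be particular to the members. The least even member was FBtr0089323, with 5.76, 6.09 and 12.82 in Hey RNAi EBs and 11.06, 5.13 and 9.75 in control EBs, so that its small EB difference came from means of very unlike arrays. For 54 members the EB difference was within 0.3 of 0. A small difference of means of such uneven arrays does not show that Hey RNAi EBs and control EBs held the same level.

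The unevenness of the control EBs had an order. Control EB 1 was the highest of the 3 for 90 members (33.4% of all transcripts) and control EB 2 the lowest for 98 (31.4%). The order 1, 3, 2 from high to low was found for 83 members, for 43.9% of the other 1629 gut-enriched transcripts and for 18.1% of all transcripts. The median member deviated from its group mean by 0.76, -0.81 and 0.03 on control EBs 1, 2 and 3, where all transcripts deviated by -0.02, 0.05 and 0.00. The range over the control EBs had a median of 1.68 over the members (0.67 over all transcripts). Other gut-enriched transcripts shared the direction with smaller deviations, 0.31 on control EB 1 and -0.32 on control EB 2. The study describes the share of purified cells with the marker as differing between preparations, lowest in its experiment 1 and highest in its experiment 2. Whether those numbers match the replicate numbers used here is not given. The part of that share in these values was not tested.

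**Figure D4:**
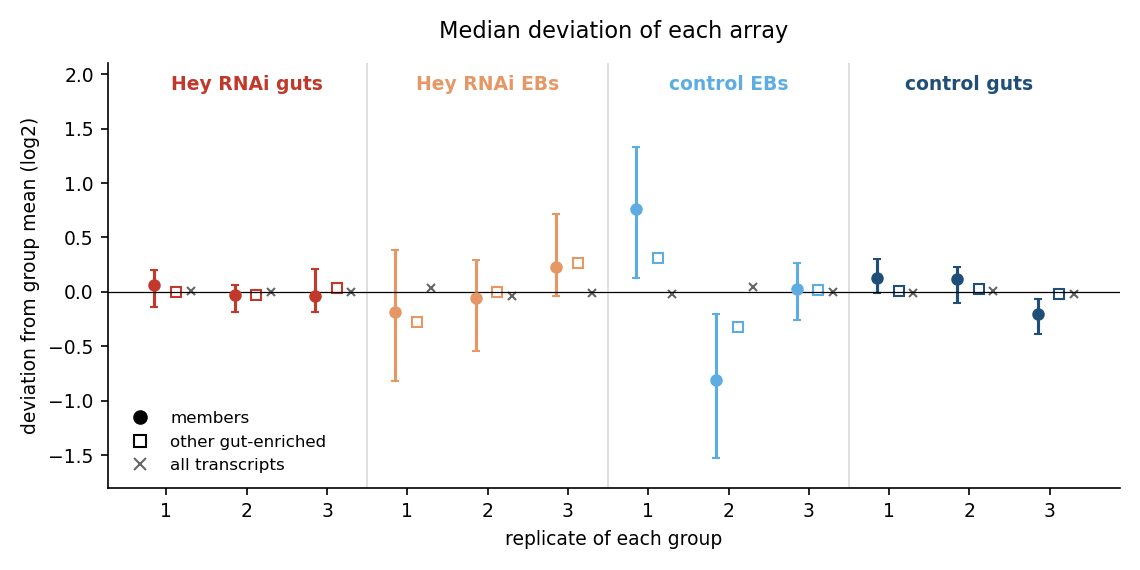
Median deviation of each array from the mean of its group, in log2 units, over the 123 members (filled circles, with bars for the middle 50% of members), the other 1629 gut-enriched transcripts (open squares) and all 15473 transcripts (crosses). Control EBs 1 and 2 lie at 0.76 and -0.81 over the members, and all transcripts stay within 0.05 of 0 on every array.

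Taken against each control EB alone, the median tissue difference of the members was -2.34, -3.88 and -3.13 for control EBs 1, 2 and 3. At or below -1.5 were 96, 120 and 115 members, against 10.9%, 11.9% and 11.6% of all transcripts. The rule required the mean of these same control EBs to meet that limit, so nothing is read from the counts. The median member was below control guts on each control EB array, by amounts that differed more than 1.5 log2 units. The Hey RNAi gut mean was above control EB 1 for 66 members, above control EB 2 for 105 and above control EB 3 for 92, so how many members stopped short of the progenitor level depended on the array.

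The whole-gut arrays differed less among themselves. The Hey RNAi gut medians were 9.35, 9.36 and 9.41, against 12.15, 12.06 and 11.82 in control guts. Control gut 3 was the lowest of its group for 83 members (39.0% of all transcripts), with a median deviation of -0.21. As a reading that needs no normalization across tissues, chosen after the data were seen, the deposited intensities were compared within same-numbered gut arrays, whose array means lay within 0.309% of each other. Hey RNAi gut 1 over control gut 1 gave a median log2 ratio of -2.36 over the members, the pair numbered 2 gave -2.45 and the pair numbered 3 gave -2.02. The rule's demand that the gut arrays not overlap all but fixed the sign within each pair, so nothing is read from all 123 members being below 0 in each, as 49.8%, 52.2% and 50.2% of all transcripts were. At or below -1 were 122, 119 and 116 members, against 6.86%, 6.57% and 5.57% of all transcripts. The gut limit of the rule was set on these same arrays, so these counts and the pair medians are also a description of the choice.

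To read the pattern on arrays that had not chosen the transcripts, the rule was applied to 8 arrays, leaving out all 4 arrays of one replicate number, and the chosen transcripts were read on those 4. The transcripts chosen were only in part the 123 members. The rule itself had been set with earlier results of these data known. Each reading on the arrays left out rests on a single array per group. None is therefore an independent replication, and none is taken as support for the pattern. Without number 1, 103 transcripts were chosen, 72 of them members, and their median gut difference was -2.23 on the 8 arrays and -2.05 on the arrays left out, against 0.04 for all transcripts. All 103 were below 0 there, as were 46.9% of all transcripts. Without number 2, 105 were chosen, 72 of them members, with medians of -2.11 on the 8 arrays and -2.28 on those left out and 101 below 0 (50.4% of all transcripts). Without number 3, 141 were chosen, 103 of them members, with medians of -2.26 on the 8 arrays and -1.70 on those left out and 134 below 0 (47.9%).

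The EB difference was held within 0.8 by the rule on group means, and a difference of single arrays can spread more widely. Nothing is therefore read from its counts on the arrays left out. On the arrays left out, the EB difference was within 0.8 for 47 of 103 transcripts without number 1, 44 of 105 without number 2 and 86 of 141 without number 3. Among all transcripts the shares were 63.97%, 58.9% and 62.3%. The whole rule was met again on the 4 arrays by 24, 33 and 49 of the chosen transcripts, against 0.698%, 0.834% and 0.698% of all transcripts.

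Membership of single transcripts was less steady than the size of the group. With each of the 12 arrays left out in turn, 27 members met the rule every time, and each member met it at least 7 times. Leaving out a gut array removed 34 members at least once, and leaving out an EB array removed 81. The fewest were kept without control EB 2 (80) and without control EB 1 (93). The 27 had medians of 9.20 in Hey RNAi guts, 8.08 in Hey RNAi EBs, 7.779 in control EBs and 11.69 in control guts, and a median SD over the control EBs of 0.45, against 0.95 for the other 96. FBtr0077539 was among the 27, and FBtr0085078 met the rule in 10 of the 12 cases.

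Gut-enriched transcripts with little gut difference spanned much of the same range of levels in control guts. The 313 gut-enriched transcripts with a gut difference within 0.3 and an EB difference within 0.8 had medians of 11.31 in Hey RNAi guts, 8.23 in Hey RNAi EBs, 8.09 in control EBs and 11.37 in control guts. In control guts the median member was brighter than 78.8% of all transcripts, and the median of the 313 brighter than 69.4%. Among the brightest 1 in 10 there were 30 of the 123 members and 75 of the 313. Both sets were defined by these arrays, so no test of the difference is given.

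The 5 transcripts outside the group with profiles most like the members' mean (Euclidean distance over the group means, each profile centred on control guts) were FBtr0072574, FBtr0075801, FBtr0083418, FBtr0077212 and FBtr0082377. Their distances were 0.77 to 0.86 log2 units, and the members' own distances to that mean had a median of 1.54. All 5 met the gut and tissue limits, with gut differences of -2.83 to -1.82, and missed only the EB limit, with EB differences of -0.92, 0.93, -1.07, -0.95 and -0.89. The edge of the group on the EB side thus ran through transcripts of the same gut pattern.

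Some members had close identifier numbers. Another member lay within 5 numbers for 28 members (22.8%), and a member lay within 5 numbers of 8.96% of the other gut-enriched transcripts and of 5.60% of all non-members. These 28 formed 11 pairs and 1 run of 6 (FBtr0072625, FBtr0072628, FBtr0072629, FBtr0072630, FBtr0072631 and FBtr0072634), out of 9 identifiers on the array in that range. The numbers are not positions in the genome, and whether these are neighbouring genes, transcripts of one gene or targets of shared probe sequence is not given in the sources used here. If they are any of these, they are fewer independent items than their count.

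The means of the 6 transcripts of the run were 7.503 to 9.95 in Hey RNAi guts, 7.91 to 10.09 in Hey RNAi EBs, 8.01 to 10.69 in control EBs and 11.32 to 13.63 in control guts, and their gut differences ran from -4.09 to -1.75. FBtr0072629, for example, had levels of 7.33, 7.35 and 7.83 in Hey RNAi guts, against 12.15, 10.01 and 12.05 in control guts. Control gut 2 was the lowest of its group for 5 of the 6, whose gut differences were -4.09 to -2.93. The exception was FBtr0072625, with 11.90, 11.14 and 10.91 in control guts and a gut difference of -1.75. Hey RNAi EB 2 was the lowest of its group for all 6, as it was for 45 of the 123 members and 37.8% of all transcripts. All 6 had the control EBs in the order 1, 3, 2, as had 83 of the 123 members and 18.1% of all transcripts. The range over the control EBs was 1.53 for FBtr0072625 and up to 5.09 for the others. None of the 6 was among the 27 that met the rule with every array left out in turn. The 3 other identifiers in the range did not share the pattern, with gut differences of -0.16 (FBtr0072626), -1.001 (FBtr0072632) and 0.31 (FBtr0072633).

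**Figure D5:**
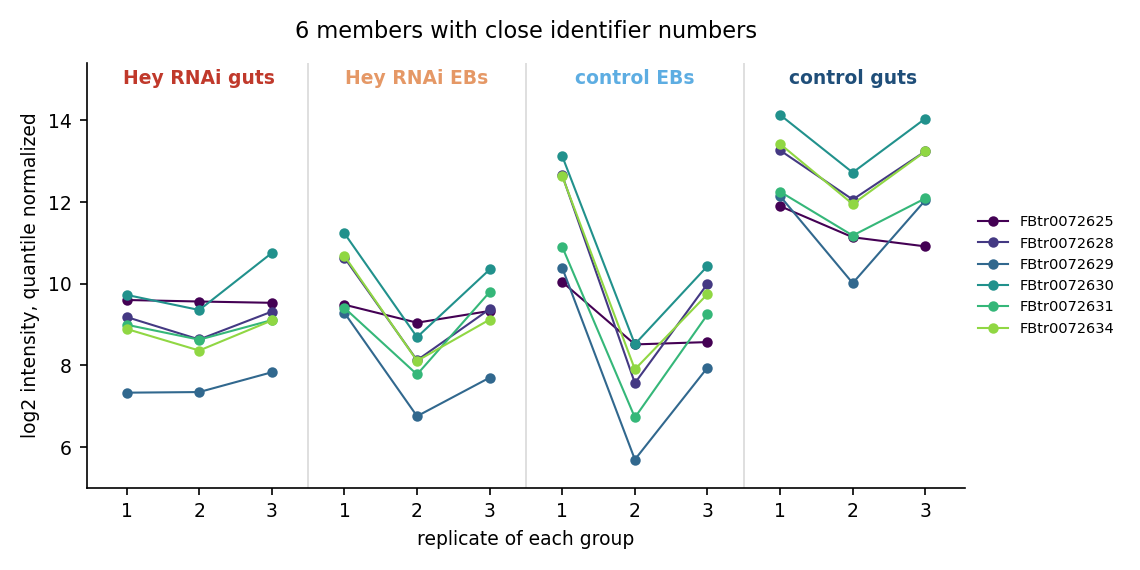
Log2 intensity of the 6 members with close identifier numbers on each of the 12 arrays. Each colour is 1 transcript, and lines join its 3 arrays within a group only to make it easier to follow, since replicates have no order. Control gut 2 is the lowest control gut for 5 of the 6, and control EB 2 the lowest control EB for all 6.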

How the data were processed

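The authors scanned the arrays and extracted the data in NimbleScan. The deposited intensity values are linear, 1 for each transcript on each array, and run in steps that fit a plain mean of 4 or 5 probes for all but 3 transcripts (tolerance 0.01). The study's design text gives 4 probes per target. The submitters' processing notes name RMA, and whether these values precede it is not given in the sources used here. The authors' own fold and p-value tables were not used.

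Intensities were taken to log2 and quantile normalized over the 12 arrays, which can hide a change common to most transcripts. Array medians before this were 490.5 to 877.6. The number of arrays limits precision. Calls used limma 3.58.1 in R 4.3.3, with 1 mean per group and 8 residual degrees of freedom. No dim transcript was removed. The members and lists were chosen with earlier results of these data known. Members were named where paired with a symbol, and otherwise by the 2 most negative gut differences, the transcripts nearest each limit and the 5 nearest profiles. The lists of gut genes and cell type markers could not be applied without symbols. Same-numbered arrays deviated together in EBs (r of 0.183, 0.321 and 0.127), a pairing read from the data. The study describes replicates as independent crosses.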

Additional observations from a re-analysis of the deposited data

Results flagged for a closer look

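In 3 members all Hey RNAi EBs lay above all control EBs while all Hey RNAi guts lay below all control guts, so the 2 differences had opposite signs. Non-overlapping EB groups, in either direction, were found for 34.7% of all transcripts, and the 3 are a smaller share of the members. The rule kept the EB difference within 0.8, which limits both their number and the size of their EB differences. The difference between the 2 tissues was not tested, since the gut direction was part of the choice. FBtr0071445 had an EB difference of 0.58 (7.29, 6.59 and 6.54 in Hey RNAi EBs against 6.50, 6.44 and 5.73 in control EBs) and a gut difference of -1.89. FBtr0073378 had an EB difference of 0.65 (10.21, 10.04 and 10.51 in Hey RNAi EBs against 9.69, 9.40 and 9.72 in control EBs) and a gut difference of -1.601. FBtr0076793 had an EB difference of 0.61 (8.39, 7.771 and 8.08 in Hey RNAi EBs against 7.61, 7.24 and 7.56 in control EBs) and a gut difference of -2.28.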

How the results depend on the processing

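The number of transcripts meeting the rule was 123, and 237 with both limits at -1, 65 with both at -2 and 214 with no EB limit. It was 104 to 141 with 1 array left out. With no further normalization 117 met it (100 of them members), with median centring 124 (105) and with separate normalization of guts and EBs 122 (115). The median tissue difference of all transcripts was 0.21, 0.37 without normalization, 0.63 with median centring and 0.53 with separate normalization, so the members' tissue difference is relative to that choice. The gut comparison called 480 transcripts (259 higher, 221 lower), 158 with no further normalization, 277 with median centring and 1016 when only the gut arrays were fitted. Leaving out 1 array gave 229 to 638, with 261 without control gut 1, 229 without control gut 2, and 259, 244 and 284 without Hey RNAi guts 1, 2 and 3. Its lower calls were 80, 143 and 516 under those 3 settings, 114 without control gut 1, 97 without control gut 2, and 111, 105 and 125 without Hey RNAi guts 1, 2 and 3. The EB comparison called 2625 (1161 higher, 1464 lower), 1742 with no further normalization, 1250 when only the EB arrays were fitted, and 2290 to 2942 with 1 array left out. Median centring gave 688 higher and 1910 lower. The comparison of control EBs with control guts called 4551 (2434 higher, 2117 lower), and 4061 higher and 1712 lower with median centring. With the replicate number as a block the counts were 450 in guts, 2707 in EBs and 4632 for control EBs against control guts. In guts same-numbered arrays did not all deviate together (r of 0.168, 0.00482 and 0.256). The gut difference was -6.07 to -5.68 for FBtr0085078 and -5.998 to -5.51 for FBtr0077539 with 1 gut array left out.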
